A study of Mus musculus with 12 samples.

Results

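Rpl3l and Rpl3 are paralogous mouse genes whose related proteins take the same position in the large ribosomal subunit, and Rpl3l is the gene disrupted in the knockout hearts of this study. They are 2 of the 55401 gene entries counted in every library and were picked by name. The study sequenced RNA from adult mouse hearts of 2 genotypes, wild type (WT) and Rpl3l-/- (KO), as Input and as IP, with 3 biological replicates in each of the 4 groups. Input was total RNA taken from heart homogenate with TRIzol. For IP, hearts were exposed to cycloheximide, which stalls elongating ribosomes, when they were excised. Ribosomes were then captured on beads through an antibody to the HA tag and their RNA was purified with an RNeasy kit, so fraction and purification method change together. Poly(A) RNA of both fractions was made into nanopore direct cDNA libraries, in which long molecules are read without amplification, and run on a MinION. The knockout allele, the strain, sex and exact age of the mice, the protein that carries the HA tag, the cells that express it, and whether an Input and an IP library came from 1 heart are not given in the sources used here.

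RPL3 lies close to the peptidyl transferase centre, where peptide bonds form, and is among the proteins added early in large-subunit assembly. It is made in nearly all tissues. RPL3L is the form of striated muscle, made in heart and skeletal muscle, and a ribosome is thought to carry one or the other protein at this position.

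The names come from GENCODE M21, which uses build GRCm38. Rpl3l (ENSMUSG00000002500) lies on the plus strand of chromosome 17 from 24727820 to 24736143, and its main coding transcript of 1375 bases has 10 exons. Rpl3 (ENSMUSG00000060036) lies on the minus strand of chromosome 15 from 80077791 to 80091868, and its main coding transcript of 1351 bases also has 10 exons. The transcripts are thus nearly equal in length, and a level per length moves the Rpl3l to Rpl3 ratio little. Aligned end to end, the coding sequences are identical at 899 of 1202 aligned bases (74.8%). Translated, they give proteins of 407 residues for RPL3L and 403 for RPL3, with 310 of 402 aligned residues identical (77.1%). With codons paired by the protein alignment instead of the base alignment, differences fall most often at the third base of a codon (187 positions, against 76 at the first and 55 at the second). In 138 codons the bases differ and the residue is the same, and in 92 the residue differs too. The coding sequence of Rpl3l has the higher GC content (56.4% against 51.6%).

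How far reads of one gene can be told from reads of the other depends on these differences, so 2 stretches of 60 bases of the coding sequences are shown with the differing bases in capitals. In the stretch where the pair is most alike, bases 520 to 579 of both coding sequences counted from the start codon, 8 of 60 bases differ.
Rpl3: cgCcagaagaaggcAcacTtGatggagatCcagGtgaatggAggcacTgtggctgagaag
Rpl3l: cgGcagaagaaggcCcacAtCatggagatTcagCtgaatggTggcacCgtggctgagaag
In the stretch where it is least alike, bases 163 to 222, 25 of 60 bases differ.
Rpl3: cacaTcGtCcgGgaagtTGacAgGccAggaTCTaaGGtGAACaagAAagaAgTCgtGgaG
Rpl3l: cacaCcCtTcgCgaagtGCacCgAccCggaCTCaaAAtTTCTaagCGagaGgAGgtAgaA
The longest run of bases shared by the 2 coding sequences is 22. A full-length read of either transcript crosses all of these differing positions. The sources used here do not give the rule by which reads were assigned to genes. Pseudogenes, nearly all of them processed, include closer copies of Rpl3 than Rpl3l, which was 74.4% identical in the same search. At least 200 aligned bases of the Rpl3 coding sequence are shared by 34 annotated pseudogenes, at 71.4% to 99.8% identity, and none is more like Rpl3l than Rpl3. Of these, 33 had 0 counts in every library, among them Rpl3-ps1 (99.8% identical) and Rpl3-ps2 (98.8%). The exception, Gm5879, is 99.0% identical to Rpl3 and held 19 counts over all libraries, at most 4 in one, and adding them to Rpl3 changed no call. Actc1, Rpl24 and Rpl35a were listed at 0 counts in every library. Whether reads matching several genes were left uncounted was not tested. Any such loss from Rpl3 would raise the Rpl3l to Rpl3 ratio.

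The libraries held between 169359 and 710868 counts, so that 3 counts stand for 4.22 to 17.7 CPM (counts per 1000000 counts of the library). Of the cardiomyocyte markers listed for this work, 17 of 18 had enough counts to be tested and Actc1 was listed at 0 in every library. Summed, they took 73551 to 95493 CPM in WT Input, 80133 to 88681 in KO Input, 81301 to 91678 in WT IP and 89161 to 97008 in KO IP, with the myosin light chain gene Myl2 highest. The markers therefore show heart muscle RNA in all groups, with summed levels that overlapped or nearly overlapped. None of the 17 passed the test between genotypes in either fraction by edgeR, DESeq2 or limma-voom (0 in Input and 0 in IP at an unadjusted p under 0.05). Of all genes tested, edgeR called 0.182% in Input and 0.0910% in IP, so the lack of calls among 17 says little. Between IP and Input, edgeR called 5 of the 17 in each genotype, beside 14.0% of all genes in WT and 16.4% in KO. Of these markers, 2 were higher and 3 lower in WT IP, and 3 higher and 2 lower in KO IP. Among the other cell types, the summed adipocyte and fibroblast markers differed by fraction without overlap in each genotype. Fibroblast markers were at 1618 to 1713 CPM in WT Input and 1840 to 2605 in WT IP. In KO they were at 1506 to 2403 CPM in Input and 2509 to 2860 in IP. The sums of the endothelial, smooth muscle and pericyte, macrophage and erythroid markers overlapped between fractions and between genotypes. The summed adipocyte markers were at 127 to 583 CPM in WT Input and 177 to 347 in KO Input, against 14.6 to 56.4 in WT IP and 27.1 to 56.3 in KO IP. The 2 tested members, Cfd and Ucp1, fell in IP in both genotypes by edgeR. DESeq2 called 2 in WT and 1 in KO, and limma-voom 1 in each. Both were low in the IP libraries (Cfd 8.57 to 31.7 and Ucp1 0 to 3.43 CPM). They reached the count filter through their Input libraries, so these falls partly follow from that filter. Haemoglobin transcripts took 1.70% to 17.3% of a library, most in WT IP replicate 2 and WT Input replicate 3. The 5 tested erythroid markers were lower in KO than in WT in both fractions, with median log2 fold changes of -1.19 in Input and -1.17 in IP, and none was called by edgeR, DESeq2 or limma-voom (0 in Input and 2 in IP at an unadjusted p under 0.05 by edgeR). With the globin genes left out, edgeR's log2 fold change between genotypes was -2.47 in Input and -5.85 in IP for Rpl3l, and 0.94 and 1.35 for Rpl3. Without the 2 libraries richest in haemoglobin it was -2.44 and -5.85 for Rpl3l, and 0.98 and 1.48 for Rpl3, and all 8 values passed the test. The part of adipocyte or fibroblast RNA in the results below was not tested. In such bulk samples, fewer cells of a type and less RNA per cell cannot be told apart.

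Rpl3l, the targeted gene, was lower in every KO library than in any WT library. In WT Input it had 89, 125 and 83 counts, or 222, 308 and 279 CPM after scaling by edgeR's TMM factors. In KO Input it had 18, 7 and 9 counts, or 68.5, 27.0 and 51.1 CPM. These counts were few but above the 3 counts that a gene at 0 would allow, and the groups did not overlap. In WT IP the counts were 182, 158 and 156, or 269, 271 and 275 CPM, the narrowest spread of any group of either gene. That spread is smaller than the counting error of such counts and is not a measure of precision. In KO IP 1, 2 and 5 counts remained, or 2.33, 2.62 and 8.31 CPM, 2 of the 3 libraries lying under the 3-count level. Rpl3l thus stood at 269.6 ± 43.9 CPM in WT Input and 272 ± 2.75 CPM in WT IP, which overlap, then 48.9 ± 20.9 CPM in KO Input and last 4.42 ± 3.37 CPM in KO IP (mean ± SD, n = 3 each).

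**Figure D1:**
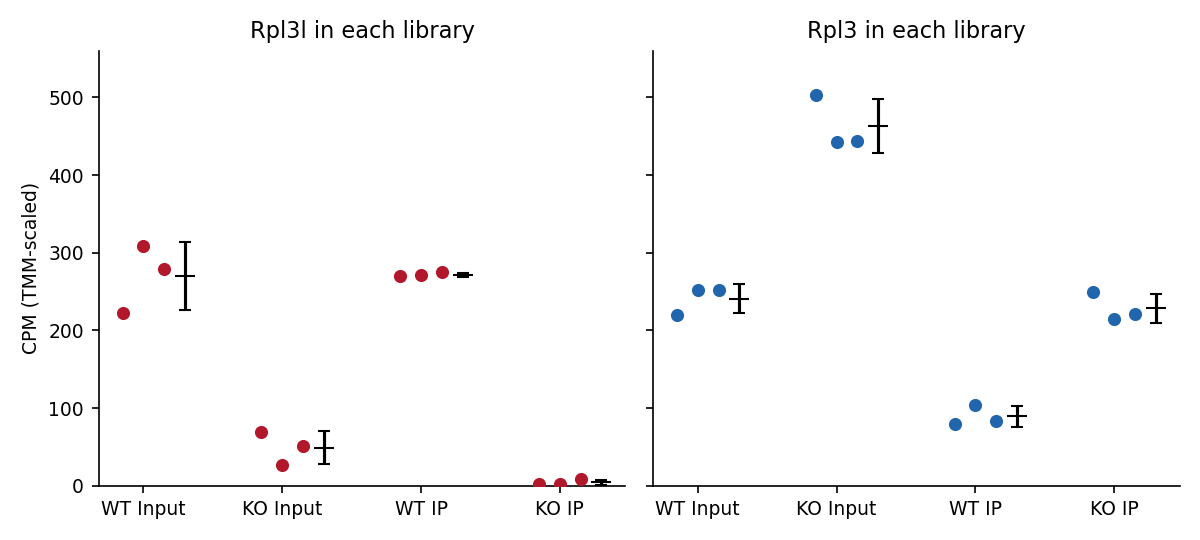
Level of Rpl3l (left) and Rpl3 (right) in each library, in TMM-scaled CPM on a linear axis from 0; each dot is 1 library, the horizontal tick and bar are the mean and SD of the 3 libraries of a group. Rpl3l lies between 222 and 308 CPM in the WT libraries and at or below 68.5 CPM in the KO libraries, while Rpl3 is higher in the KO libraries of each fraction than in all WT libraries of that fraction.

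In Input, Rpl3l was 5.50-fold lower in KO than in WT (95% interval 3.72 to 8.13; log2 fold change -2.46, SE 0.27, edgeR adjusted p = 1.77e-05). In IP it was 57.4-fold lower (35.8 to 92.1; log2 fold change -5.84, SE 0.33, adjusted p = 9.27e-12 by edgeR), a fitted value that rests on the 8 KO counts above and reached -6.60 on the log2 scale without KO IP replicate 3, the library with 5 of them. Both tests run over 6596 genes, of which 0.182% passed in Input and 0.0910% in IP (0.0303% and 0.0606% in the lower direction; in IP 2 genes higher and 4 lower, or 3 and 2 with library totals), and Rpl3l had the smallest p-value of all genes in both. For Rpl3l in IP, DESeq2 gave an SE of 0.55 and limma-voom 0.78 against 0.33 by edgeR, so edgeR's interval may be too narrow. The labels do not give the disrupted part of the gene, and counts per gene do not show which part of the transcript the remaining reads cover.

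Rpl3, the paralog that was not targeted, was higher in KO hearts in both fractions. In WT Input it had 219, 252 and 252 CPM (88, 102 and 75 counts), and in KO Input 503, 443 and 443 CPM (132, 115 and 78 counts). Every KO Input library lay above every WT Input library. In WT IP Rpl3 had 79.9, 105 and 82.8 CPM (54, 61 and 47 counts), and in KO IP 249.7, 215 and 221 CPM (107, 164 and 133 counts), again without overlap. Group means were 463 ± 34.4 CPM in KO Input, 241 ± 18.7 in WT Input, 228 ± 18.7 in KO IP and 89.1 ± 13.4 in WT IP (SD, n = 3 each), and the WT Input and KO IP libraries overlapped.

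The rise of Rpl3 was 1.93-fold in Input (95% interval 1.51 to 2.46; log2 fold change 0.95, SE 0.17, edgeR adjusted p = 0.0102) and 2.55-fold in IP (1.99 to 3.29; log2 fold change 1.35, SE 0.18, edgeR adjusted p = 0.000171). Rpl3 ranked 6th of all genes by p-value in Input and 2nd in IP. Of the genes tested, 0.152% passed in the higher direction in Input and 0.0303% in IP. Leaving out single libraries kept the Input rise between 0.87 and 0.98 on the log2 scale, but edgeR's adjusted p reached 0.118 when WT Input replicate 1 was left out, and 0.0648 when KO Input replicate 1 was. The IP call held without any single library. The 2 rises were not shown to differ in size: its log2 fold change between genotypes was larger in IP than in Input by 0.41 (95% interval -0.10 to 0.91, edgeR adjusted p = 0.782).

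**Figure D2:**
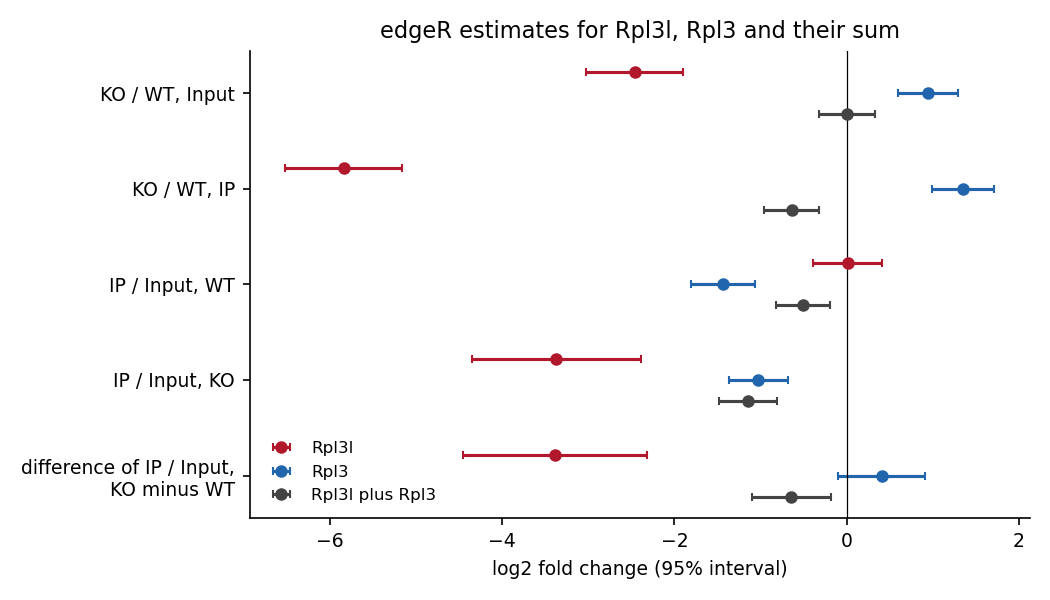
Log2 fold changes of Rpl3l, Rpl3 and their sum in the 5 contrasts, from edgeR's fit to all 12 libraries; points are estimates, bars their 95% intervals, and the vertical line marks no difference. Rpl3l lies far below 0 and Rpl3 above 0 in both KO against WT contrasts, and the interval of the sum includes 0 in Input (0.01) but not in IP (-0.64, edgeR adjusted p = 0.223). For Rpl3l, KO against WT in IP, DESeq2 and limma-voom gave larger SEs (0.55 and 0.78), so its bar may be too narrow.

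The sum of the counts of the pair does not depend on how reads were split between the paralogs. In KO it includes the remaining Rpl3l reads, 34 counts in Input and 8 in IP, whose coding content is not known. In Input the sum was 441, 559.8 and 531 CPM in WT and 571, 469.9 and 494 CPM in KO. The libraries of the 2 genotypes interleaved. KO Input libraries had on average 221 CPM less Rpl3l and 222 CPM more Rpl3, so the gain of Rpl3 was 100.6% of the loss of Rpl3l in CPM. The refitted table gave a fold change of 1.00 for the sum, with a 95% interval of 0.802 to 1.26 (edgeR adjusted p = 0.996). Differences inside that interval could not be seen with these libraries.

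In IP the libraries of the 2 genotypes did not interleave. The sum was 349, 375 and 357 CPM in WT and 252, 217 and 229 CPM in KO. Rpl3l was lower by a mean of 267 CPM and Rpl3 higher by 139 CPM, a gain of 52.2% of the loss. The sum was at 0.644 of its WT level (95% interval 0.515 to 0.804; log2 fold change -0.64, SE 0.16), with an unadjusted p of 0.000399 that did not pass over all genes (edgeR adjusted p = 0.223). An exact two-sided permutation test of the sum gave p = 0.1, the smallest value that 3 against 3 allows. Whether the sum changed differently in IP than in Input was likewise not settled, the log2 difference being -0.64 (95% interval -1.10 to -0.19, unadjusted p = 0.00771, edgeR adjusted p = 0.530).

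**Figure D3:**
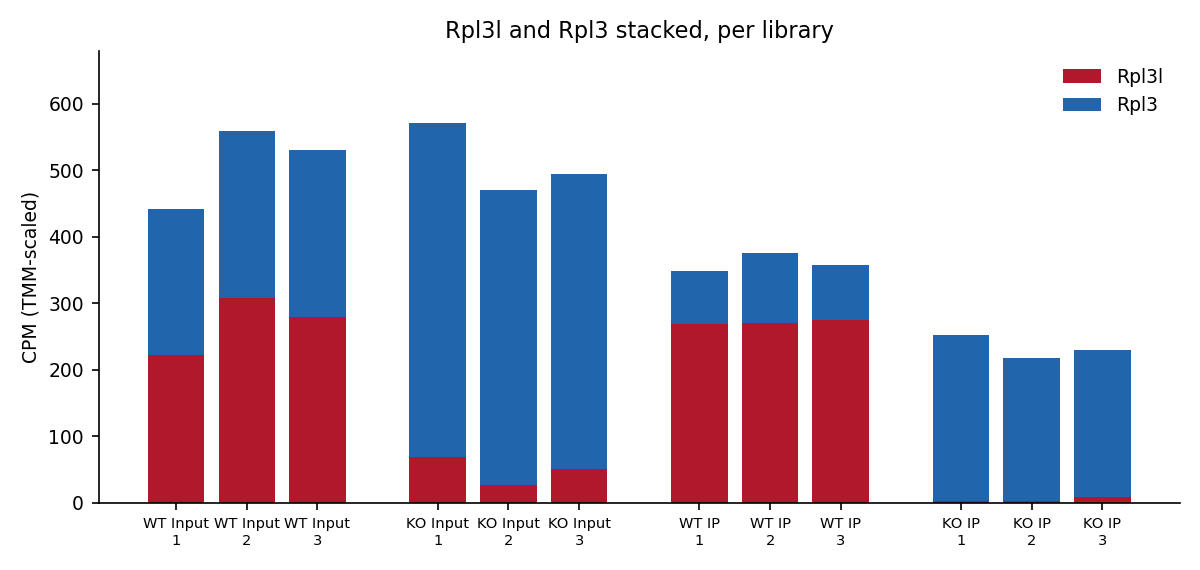
Rpl3l (red) and Rpl3 (blue) stacked in each library, in TMM-scaled CPM from 0; the height of a bar is the sum of the pair. The bars of KO Input reach the heights of WT Input with a small red part, and the 3 KO IP bars (217 to 252 CPM) are all lower than the 3 WT IP bars (349 to 375 CPM).

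The makeup of the pair, which needs no scaling between libraries, differed by fraction as well as by genotype. In WT Input the pair was near parity, Rpl3l making up 50.3%, 55.1% and 52.5% of the 2 genes' counts. In WT IP its share was 77.1%, 72.1% and 76.8%, above every Input library. In KO Input the share was 12.0%, 5.74% and 10.3%, and in KO IP 0.926%, 1.20% and 3.62%, below every Input library. Exact binomial 95% intervals, which cover counting error only, ran for example from 42.7% to 57.9% in WT Input replicate 1, from 71.2% to 82.3% in WT IP replicate 1, from 7.27% to 18.3% in KO Input replicate 1 and from 0.0234% to 5.05% in KO IP replicate 1. Per 100 counts of Rpl3 there were 111 ± 10.7 of Rpl3l in WT Input, 309 ± 43.6 in WT IP, 10.4 ± 3.90 in KO Input and 1.97 ± 1.56 in KO IP (SD, n = 3 each). Per kilobase of transcript these means become 109.5, 304, 10.2 and 1.94.

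**Figure D4:**
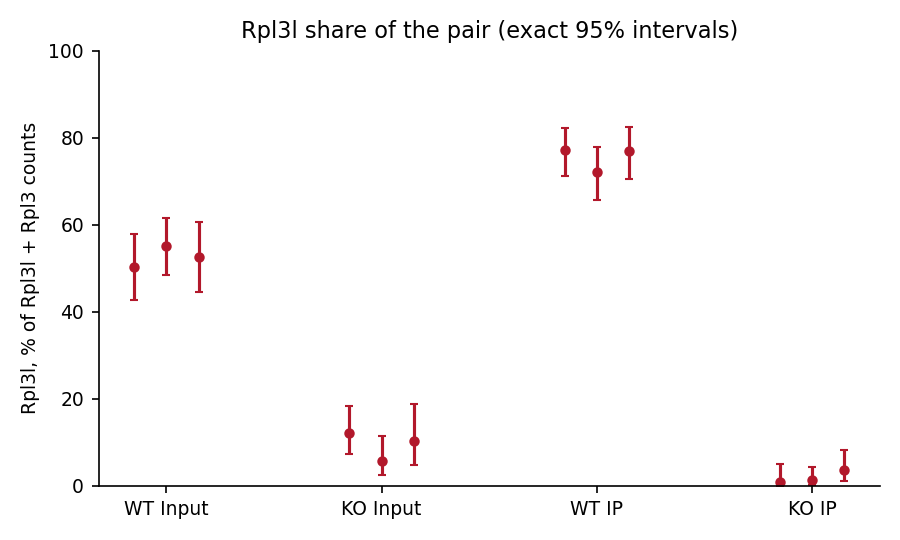
Rpl3l as a percent of the counts of Rpl3l plus Rpl3 in each library; dots are libraries and bars exact binomial 95% intervals for counting error. WT libraries lie at 50.3% to 55.1% in Input and 72.1% to 77.1% in IP, KO libraries at 5.74% to 12.0% in Input and 0.926% to 3.62% in IP.

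On a log2 scale with 0.5 counts added, the Rpl3l to Rpl3 ratio was 10.8-fold lower in KO than in WT in Input and 148-fold lower in IP. In WT it was 2.75-fold higher in IP than in Input, and in KO it was 5.01-fold lower in IP than in Input. The groups did not overlap in any of these 4 comparisons, and each exact two-sided permutation p was 0.1, the smallest possible with 3 against 3 (0.12 after Benjamini-Hochberg adjustment over the 6 ratio tests). With libraries exchanged between genotypes within each fraction, the ratio was 39.9-fold lower in KO over both fractions and the exact permutation p was 0.005, the smallest possible (0.03 adjusted). This test takes Input and IP libraries as independent, and whether they share hearts is not given. If they do, whole hearts would have to be exchanged, and 3 against 3 allows no p under 0.1. The fraction contrast over both genotypes, in which WT and KO went opposite ways, gave 0.485 in the exact permutation test.

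Gene by gene, Rpl3 fell in IP in both genotypes, while in WT Rpl3l did not pass the test. The log2 fold change of Rpl3l between WT IP and WT Input was 0.01 (95% interval -0.39 to 0.41, edgeR adjusted p = 0.977). Rpl3 was 2.70-fold lower in WT IP than in WT Input (95% interval 2.08 to 3.50; log2 fold change -1.43, SE 0.18, edgeR adjusted p = 3.48e-06). In KO, Rpl3 was 2.04-fold lower in IP (95% interval 1.61 to 2.58; log2 fold change -1.03, SE 0.17, edgeR adjusted p = 9.86e-05). These contrasts called many genes, 14.0% of all tested in WT (5.37% higher and 8.67% lower in IP) and 16.4% in KO (6.64% higher and 9.78% lower). The balance of directions in KO depends on the scaling, with 438 genes higher and 645 lower by TMM but 599 higher and 448 lower when scaled by library totals. The sum of the pair fell in IP, with log2 fold changes of -0.50 in WT (edgeR adjusted p = 0.0285) and -1.14 in KO (1.70e-05). The WT call was lost without WT IP replicate 1, 2 or 3, WT Input replicate 2 or 3, or KO IP replicate 3 (edgeR adjusted p from 0.0503 to 0.135), and when the libraries were scaled by their totals (0.106).

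The other ribosomal protein genes give the setting for the drop of Rpl3. Of 46 other large-subunit genes listed, 44 were tested and Rpl24 and Rpl35a were listed at 0 in every library. In WT, 40 of the 44 fell in IP against Input and none rose, with a median log2 fold change of -1.45 against 0.02 over all genes tested. Rpl22 (-2.50), an RNA-binding protein gene with a paralog of its own, Rpl39 (-2.36) and Rpl32 (-1.97) were among them. All 32 tested small-subunit genes fell as well, with a median of -1.47, Rps12 lowest at -2.67. Rpl3 (-1.43) stood in the middle of the large-subunit genes, with 22 of 44 below it. Rpl3l (0.01) stood near the top with 43 of 44 below it, the exception being Rpl4 at 0.07. In KO, 39 of the 44 large-subunit genes fell (median -1.27) and all 32 small-subunit genes (median -1.46), and 29 large-subunit genes lay below Rpl3.

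**Figure D5:**
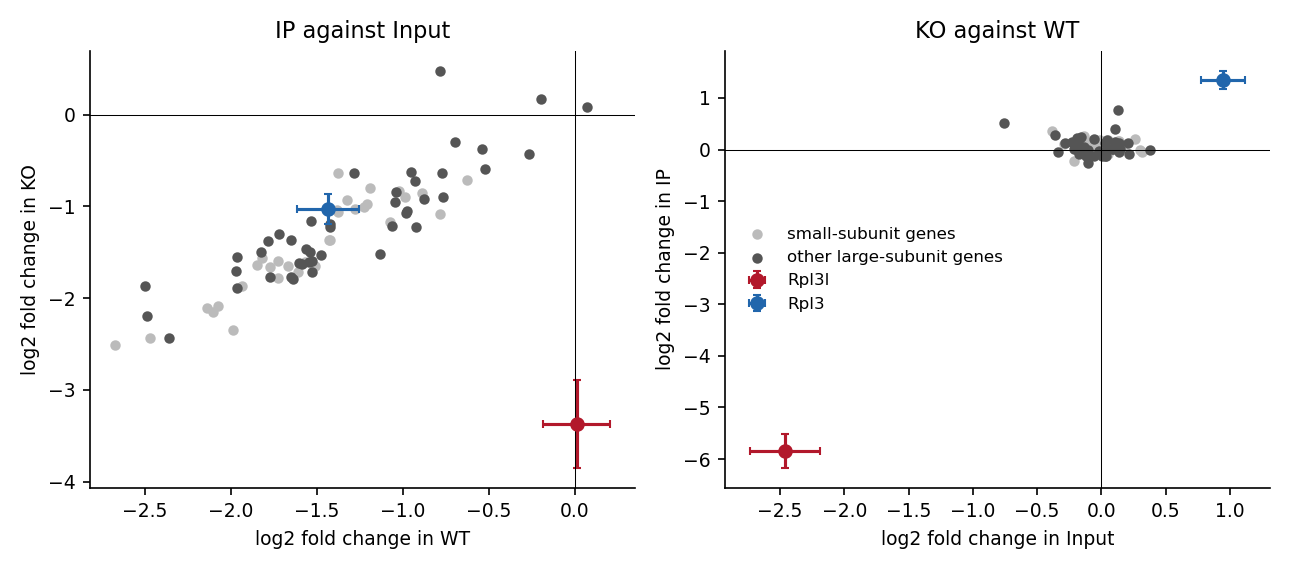
Log2 fold changes of Rpl3l (red), Rpl3 (blue), 44 other large-subunit genes (dark grey) and 32 small-subunit genes (light grey); left, IP against Input in WT (x) and in KO (y); right, KO against WT in Input (x) and in IP (y); bars on the pair are SE. Rpl3 lies inside the cloud of ribosomal protein genes on the left and outside it on the right, and Rpl3l lies outside it in both panels.

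Rpl3l was the member whose IP to Input difference changed with genotype. In KO it was 10.3-fold lower in IP than in Input (95% interval 5.22 to 20.5; log2 fold change -3.37, SE 0.48, edgeR adjusted p = 1.79e-05), whereas its log2 fold change in WT was 0.01. The KO value was -4.12 without KO IP replicate 3 and -4.29 with libraries thinned to the smallest total, and it passed the test in both. Its SE was 0.60 by DESeq2 and 0.82 by limma-voom, so the interval above may be too narrow. Rpl3l passes the count filter only through the WT libraries. In a fit of the KO libraries alone it was filtered out and not tested. The test of the difference between genotypes gave -3.38 on the log2 scale (SE 0.52, edgeR adjusted p = 0.00538), the smallest p-value of all genes in a contrast that called 0.0910% of them (0.0303% higher and 0.0606% lower). It rests on 8 counts in KO IP and 34 in KO Input, limma-voom gave an adjusted p of 0.376 for it, and edgeR gave 0.0503 without KO Input replicate 1. None of the 44 other large-subunit genes passed this test by edgeR, DESeq2 or limma-voom (3 had an unadjusted p under 0.05 by edgeR), and their median was 0.09.

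Between genotypes, Rpl3 rose, and none of its fellow subunit genes was called. Of all 6596 genes tested, edgeR called 0.182% in Input and 0.0910% in IP, and 469 and 343 had an unadjusted p under 0.05. At these shares, the lack of calls among the subunit genes says little about them. In Input none of the 44 large-subunit genes passed by edgeR, DESeq2 or limma-voom, 2 having an unadjusted p under 0.05 by edgeR. Their log2 fold changes ran from -0.76 (Rpl9, edgeR adjusted p = 0.676) to 0.38 with a median of -0.04, which is 0.03 when scaled by library totals. In IP none passed either by the 3 tools, again with 2 at an unadjusted p under 0.05, and values ran from -0.25 to 0.76 (Rpl22, edgeR adjusted p = 0.342) with a median of 0.02. Rpl3 was higher than all 44 in both fractions, and Rpl3l lower than all 44. The 32 small-subunit genes had medians of -0.03 in Input (0.04 when scaled by library totals) and 0.10 in IP. None passed by any of the 3 tools or had an unadjusted p under 0.05 by edgeR.

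None of the other ribosomal protein paralogs tested was called between genotypes. Of all 6596 genes tested, edgeR called 0.182% in Input and 0.0910% in IP, and 469 and 343 had an unadjusted p under 0.05. At these shares, the lack of calls in a short list says little about its genes. Of 7 listed, 4 were tested and Rps4l was listed at 0. None passed between genotypes by the 3 tools, with 0 at an unadjusted p under 0.05 by edgeR in Input and 2 in IP, and the smallest p-value in IP was that of Rpl7l1 (log2 fold change -0.80, edgeR adjusted p = 0.884). Rps27l, the paralog of Rps27, fell in IP against Input, with log2 fold changes of -0.96 in WT (edgeR adjusted p = 0.00125) and -1.52 in KO (7.51e-06). Rpl22l1, the paralog of Rpl22, fell in KO (-1.40, edgeR adjusted p = 0.00166). Genes that build the large subunit were measured too, 19 of 35 with enough counts. None passed between genotypes by the 3 tools (3 in Input and 0 in IP at an unadjusted p under 0.05 by edgeR), and the smallest p-value in Input was that of Pes1, a nucleolar factor of large-subunit maturation, at -1.34 (edgeR adjusted p = 0.538). In KO, 2 of the 19 rose in IP against Input: the nucleolar factor Rrp1 by 1.04 (edgeR adjusted p = 0.00583) and Sbds, which helps release the anti-association factor from new large subunits, by 1.12 (0.0304); DESeq2 and limma-voom each called 1 of the 19. Over all genes tested, 6.64% rose in that contrast, so 2 of 19 is near the background.

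Divided by the length of the longest coding transcript, both members were low among the 44 other large-subunit genes. Counts of reads from long molecules need not rise with transcript length, and the division lowers genes with longer transcripts. The ranks and percents below depend on this division, and ranks without it were not made. In WT Input, Rpl3l had 196 ± 31.9 and Rpl3 178 ± 13.8 CPM per kilobase (SD, n = 3), and 3 and 2 of the 44 genes had a lower mean, while the median gene had 599. Their sum, 374 CPM per kilobase, exceeded 7 of the 44 genes, and in KO Input, with 378, it exceeded 8. In WT IP the sum of 263 CPM per kilobase exceeded 20 of the 44, near their median of 285, and in KO IP the sum of 172 exceeded 7, against a median of 298. As a percent of the library's median large-subunit gene, the sum was 62.0 ± 11.7 in WT Input, 64.1 ± 4.48 in KO Input, 94.3 ± 18.3 in WT IP and 57.7 ± 9.18 in KO IP (SD, n = 3). The lowest WT IP library was at 75.3% and the highest KO IP library at 68.0%, so these groups did not overlap.

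No tested gene beside the pair in the genome was called between genotypes. Of all 6596 genes tested, edgeR called 0.182% in Input and 0.0910% in IP, and 469 and 343 had an unadjusted p under 0.05. At these shares, the lack of calls among a few genes says little about them. Of 6 tested genes within 50 kb of either member, none passed in Input or in IP by edgeR, DESeq2 or limma-voom (1 in Input and 0 in IP at an unadjusted p under 0.05 by edgeR). Next to Rpl3l these are Msrb1, a methionine sulfoxide reductase gene 499 bases away, with log2 fold changes of 0.16 in Input and -0.10 in IP, Ndufb10, of respiratory complex I, with 0.03 and 0.03, the small-subunit gene Rps2 with -0.13 and 0.21, the sulfhydryl oxidase gene Gfer with 0.13 and 0.39, and Zfp598, a sensor of collided ribosomes, with -1.01 and -0.85. Syngr1, a synaptic vesicle protein gene, overlaps Rpl3 on the opposite strand without sharing exon bases, and had 0.17 and -0.03. Rps2 and Syngr1 fell in IP against Input in both genotypes, and Msrb1 in KO (-0.64, edgeR adjusted p = 0.0402). These are 2 of 6 genes in WT and 3 of 6 in KO (2 by DESeq2), beside 8.67% and 9.78% of all genes tested that fell.

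Over log2 CPM of the 12 libraries, the Pearson r of Rpl3l and Rpl3 with each other was -0.41, and each was set against 6026 genes with a mean of at least 20 CPM. Highest with Rpl3l were Ahsa1, which encodes an activator of HSP90 (0.822), Tmem143 (0.797), the splicing factor gene Srsf10 (0.793), Eci1, of mitochondrial fatty acid oxidation (0.786) and Rhot1, of mitochondrial transport (0.772). Lowest were Syt7 (-0.858), Dglucy (-0.852) and the RNA-binding protein gene Celf1 (-0.833). Mean levels of Ahsa1 were 139 CPM in WT Input, 113 in KO Input, 125 in WT IP and 98.6 in KO IP, a much narrower span than that of Rpl3l. Highest with Rpl3 were the non-muscle myosin gene Myh9 (0.913), Entpd4 (0.899), Chrac1 (0.895), Plac9a (0.878) and the endothelial adhesion gene Esam (0.877), and lowest Rmnd5a (-0.911), Nudt9 (-0.898) and Sugp1 (-0.881). Mean levels of Myh9 were 81.2 CPM in WT Input, 99.2 in KO Input, 51.9 in WT IP and 65.1 in KO IP. These coefficients describe 12 libraries in 4 groups and carry no p-value.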

How the data were processed

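The deposited files hold whole-number counts of nanopore direct cDNA reads per gene, 1 file per library, made by the authors. Per the submitters' processing notes minimap2 2.14, DESeq2 1.34.0 and build GRCm38 were used, with no roles given; the counting tool and its rule for reads that match several genes are not given in the sources used here. Of the 55401 gene IDs, 55141 matched GENCODE M21 without their version. Library totals ran from 169359 to 710868 counts.

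The test was that of edgeR 4.0.16 (R 4.3.3): TMM factors, filterByExpr (minimum count 10, minimum total 15; 6596 genes), and a quasi-likelihood fit of 1 mean per group to all 12 libraries. Each contrast had its own Benjamini-Hochberg adjustment over all genes tested (threshold 0.05), and SE is the log2 fold change divided by the square root of F. For the sum, the table was refitted with the rows of Rpl3l and Rpl3 replaced by their sum. The Rpl3l to Rpl3 ratio (0.5 counts added) was tested with exact two-sided permutation tests in SciPy 1.17.1. The edgeR fit was tested on simulated counts with changes put into KO Input, for KO against WT in Input only. The other contrasts, the sum and changes as large as that of Rpl3l in IP were not covered. Coding sequences and transcripts came from GENCODE M21, aligned with Biopython 1.88, and pseudogenes were searched with BLAST 2.17.0, a step chosen after the data were seen. A fixed rule named the genes: the pair, genes starting with Rpl3-ps, tested genes within 50 kb, per gene list and contrast up to 4 called members with the smallest p or otherwise the 1 with the smallest p, the most similar patterns, and the highest cell type markers. Other named list members (Gm5879, Rpl4 and genes listed at 0) were named with their values known. The members and lists were chosen with earlier results of these data known. Alternatives were DESeq2 1.42.0 (size factors and test), limma-voom (limma 3.58.1), library totals, no filter or at least 30 counts in 3 libraries, thinning, globin genes or libraries left out, removal of a length trend, fits of the compared libraries alone, a replicate block, and leaving out each library; limma-voom, leaving out the 2 libraries with most globin, and adding pseudogene reads to Rpl3 were added after the data were seen.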

Additional observations from a re-analysis of the deposited data

Results flagged for a closer look

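The IP to Input difference of Rpl3l was not the same in the 2 genotypes: the log2 IP to Input ratio in KO minus that in WT was -3.38 (SE 0.52, edgeR adjusted p = 0.00538), with log2 fold changes of 0.01 in WT and -3.37 in KO. The difference itself was tested. In KO IP the 3 libraries had 1, 2 and 5 counts of Rpl3l, and in KO Input 18, 7 and 9. Rpl3l was filtered out of a fit of the KO libraries alone. Without single libraries the difference between genotypes ranged from -4.14 to -2.99, and without KO Input replicate 1 edgeR's adjusted p was 0.0503. The difference also missed the threshold with libraries thinned to the smallest total (edgeR adjusted p = 0.0629) and with limma-voom (adjusted p = 0.376).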

How the results depend on the processing

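Every Rpl3l to Rpl3 ratio result kept its direction under the alternatives run. In the 4 ratio comparisons of 3 against 3 the exact permutation p cannot be under 0.1, so their side of the threshold was fixed in advance. The ratio tests over both fractions or both genotypes kept their side by their unadjusted p. Both KO against WT contrasts of Rpl3l, the IP rise of Rpl3 and the fall of Rpl3 in IP against Input in both genotypes kept their direction and side of the threshold. Library totals shifted the median of all genes by 0.12 on the log2 scale for KO against WT in IP. Without a filter, IP against Input in KO had 569 genes higher and 515 lower. The estimates near 0 changed sign: the sum in KO against WT in Input was -0.041 without a filter, -0.046 after thinning, -0.000603 with the compared libraries alone, and -0.0997 to 0.077 without single libraries (below 0 without WT Input replicate 1, -0.0997, and KO Input replicate 1, -0.0965); Rpl3l in IP against Input in WT was -0.042 with the stricter filter, -0.12 after thinning, and -0.12 to 0.12 without single libraries (below 0 without WT Input replicate 1). The fall of the sum in WT IP was no longer called with library totals (-0.42, edgeR adjusted p = 0.106), without a filter (-0.43, 0.157), with the length trend removed (-0.20, 0.442) or without the 2 libraries with most globin (-0.49, 0.152), and ranged from -0.60 to -0.43 without single libraries. The Input rise of Rpl3 missed the threshold after thinning (0.89, edgeR adjusted p = 0.0823) and ranged from 0.87 to 0.98 without single libraries. The Rpl3l difference between genotypes in the IP to Input ratio missed it after thinning (-4.17, edgeR adjusted p = 0.0629) and with limma-voom (-3.36, adjusted p = 0.376), and ranged from -4.14 to -2.99 without single libraries. The causes were not tested, other than that thinning leaves fewer counts and that leaving out libraries leaves fewer samples.

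Genes called in KO against WT in Input (12) numbered 77 without a filter, 5 with the stricter filter, 6 after thinning and 4 to 17 without single libraries; in IP (6), 55 without a filter, 11 by DESeq2, 3 without the globin-rich libraries and 2 to 8 without single libraries. For IP against Input they numbered 462 after thinning and 424 without the globin-rich libraries in WT (926; 601 to 1019 without single libraries), and 650 after thinning in KO (1083). For the difference between these ratios (6) they numbered 37 without a filter, 0 after thinning, 1 by limma-voom, 1 without the globin-rich libraries and 1 to 8 without single libraries.

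Same-numbered replicates did not deviate together: over 18 pairs of libraries the correlations ran from -0.12 to 0.04, and a library correlated best with its own number in 3 of 36 cases. With the replicate block the called genes numbered 15, 8, 858, 1009 and 4 in the 5 contrasts, the Input rise of Rpl3 was 0.95 (edgeR adjusted p = 0.0157), the Rpl3l difference in the IP to Input ratio was -3.40 (0.00727), and no edgeR call of either gene or of the sum changed. The genotype ratio within fraction had an exact p of 0.03125 with the block, the smallest that 6 pairs allow, and so did not pass after adjustment over the 6 ratio tests (0.188, against 0.03 without the block). Counts limit Rpl3l most in KO, where 3 counts stand for 4.22 to 17.7 CPM.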
